A study of Mus musculus with 6 samples.

Results

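The first hour of the macrophage response to lipopolysaccharide (LPS), the outer-membrane glycolipid of Gram-negative bacteria, was measured by setting the 2 arrays hybridised with RNA after 1 h of LPS against the 2 arrays of 0 h, paired by genotype, for every gene; these are 4 of the 6 arrays of the series. Bone marrow cells of C57BL/6J mice, wild type or knockout for IκBβ (the inhibitor of NF-κB encoded by Nfkbib), had been plated overnight to remove stromal cells and resident macrophages, grown into macrophages for a week in L929-conditioned medium, and given 1 µg/ml LPS for 0, 1 or 5 h. The groups were wild type at 0 h, knockout at 0 h, wild type at 1 h and knockout at 1 h, with 1 Affymetrix Mouse Genome 430A 2.0 array each; the 2 arrays of 5 h are shown beside them. No source used here names the deleted allele, the animals or whether arrays share one. Each genotype thus gave 1 change, the 2 genotypes served as the replicates of the LPS effect, and p-values measure only the spread between these samples, which may be technical. Changes are given as log2 of the array signal at 1 h minus 0 h, averaged over the genotypes. The standard error (SE) is that of the fit to all 6 arrays, so a gene whose genotypes differ at 5 h also has a larger SE. The p-value at 1 h uses the same spread. Signals under 18.2 were raised to that floor, so that a change from or to it is a bound, written "at least". Where a pair of signals is given for a time, wild type comes first and knockout second.

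LPS is bound by CD14 and the receptor complex of TLR4 and MD-2, and the adaptors MyD88 and TRIF carry the signal to the kinases that free NF-κB and to the MAP kinases that act on AP-1 and SRF cofactors. Genes whose promoters are already open respond within minutes, without new protein; they include transcription factors, cytokines and, at the same time, the inhibitors that later turn the signal off. Many of these transcripts, and many that are lost when transcription of a gene stops, are short-lived, so the steady level of RNA can move a long way in an hour.

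Both genotypes carried the markers of the cell they were labelled as. All 16 macrophage markers on the array were above the floor on each of the 4 arrays, and their summed signal was 139995 and 130512 at 0 h and 133175 and 136577 at 1 h, in wild type and knockout. Below the array median on all 4 arrays were 10 of 11 T and NK cell genes, the exception being Zap70 in knockout at 0 h. So were all 10 fibroblast and all 10 mast cell genes. Of B cell genes 6 of 9 were, the exceptions being Ighm, Cd22 and Cd79b, and Cd79a, Pax5 and Ebf1 were under the floor. Ighm gave 3371 and 3571 at 0 h, and 2308 and 2563 at 1 h, and Cd22 gave 201 and 211, and 157 and 180. Only 6 of 12 dendritic cell and MHC class II genes and 5 of 7 erythroid genes were below it. Cd74 read 10457 and 10670 at 0 h, and Tfrc 2965 and 2666. The part of other cells in the samples was not tested. Nfkbib itself read 477 and 30.5 at 0 h, and 3329.8 and 136 at 1 h, so the labels held for both pairs of arrays; the rise of 2.48 did not pass the test (limma adjusted p = 0.0868). Xist, transcribed from the inactive X chromosome, read 52.1 and 5634 at 0 h, and 80.4 and 4189 at 1 h, so the genotypes also differed in sex. Fewer cells and less RNA per cell cannot be told apart in such samples.

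Of 7508 genes tested, 407 (5.42%) were higher and 444 (5.91%) were lower at 1 h, by limma at an adjusted p under 0.05 with the same sign in both genotypes. At least 2-fold in both genotypes were 280 of the higher genes (3.73% of those tested) and 171 of the lower (2.28%). Opposite signs enlarge the spread that the test uses, so few such genes could pass, and 0 did. Rises were larger than falls: the 280 had a median of 2.25 on the log2 scale and the 171 a median of −1.47, 139 genes rose and 22 fell at least 4-fold in both genotypes, and 35 rose at least 16-fold. The genotypes gave changes within 2-fold of each other for 260 of the 280 and 168 of the 171. The test and the 2-fold condition favour genes on which the genotypes agree, so these counts follow in part from the choice. The SD over all genes of knockout minus wild type was 0.44. Over all genes the median change was −0.18. Rises were 47.8% of the calls here, 56.1% once the arrays were quantile normalized and 66.6% when the array medians were made equal, which brings the median of all genes to 0.00 (the rescalings referred to below). With 1 array left out the higher and lower counts fell to 194 and 60 (without wild type at 0 h), 197 and 51 (without knockout at 0 h), 99 and 13 (without wild type at 1 h) and 101 and 17 (without knockout at 1 h). Of 187 genes named by rule that passed, 127, 122, 81 and 79 passed without these arrays in turn, and 71 passed with any 1 of the 4 left out.

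**Figure D1:**
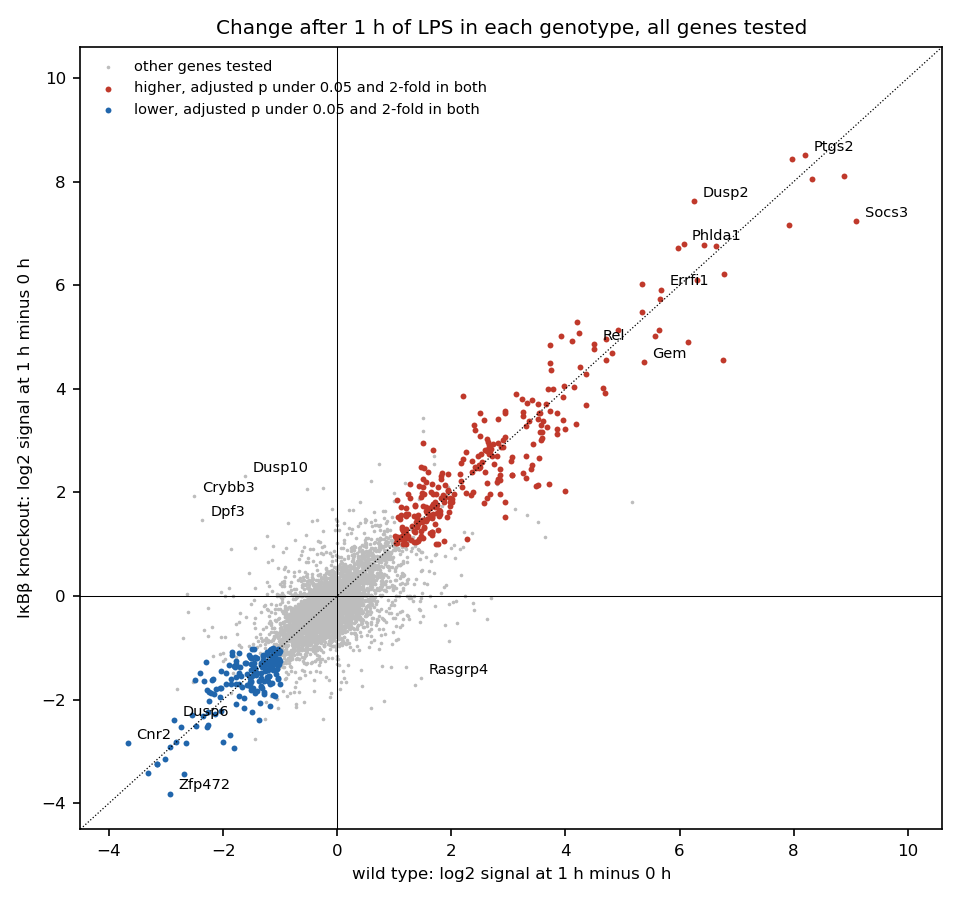
Change at 1 h of LPS in wild type (horizontal axis) and IκBβ knockout (vertical axis), both in log2 signal at 1 h minus 0 h, 1 point for each of the 7508 genes tested. The 280 genes in red and 171 in blue passed the test and moved at least 2-fold in both genotypes. Most lie near the dotted line of equal change, which this choice favours. Of the red points 20 differ at least 2-fold between genotypes, among them Socs3 (9.10 in wild type and 7.24 in knockout) and Il12b (6.76 in wild type and 4.56 in knockout). Dusp10 and Crybb3, far from the line, did not pass.

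At the edge of the 2-fold condition the genes were small in effect, and they are given here to show where it lies. Lrrc8c, a subunit of volume-regulated anion channels, was just inside with 1.10 (1.20 in wild type and 1.00 in knockout), and Rgl1, a guanine nucleotide exchange factor for Ral, was just outside with 1.42 (1.00 in wild type and 1.84 in knockout). Among falls, Trim39 was just inside with −1.35 (−1.01 in wild type and −1.70 in knockout) and Tmem51 just outside with −1.02 (−1.04 in wild type and −0.999 in knockout). A further 21 genes were 2-fold up and 28 were 2-fold down in both genotypes without passing the test.

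The 15 largest rises outside cytokines and chemokines were of genes with varied functions. They were chosen by the size of the change and the agreement of the genotypes. A gap between their 0 h and 1 h signals therefore follows largely from the choice, as it does for called genes named below. Ptgs2, the inducible cyclooxygenase that starts prostaglandin synthesis, read 1.51 and 13 at 0 h, and 5367 and 6629 at 1 h. Its 0 h signals were under the floor in both genotypes and its 1 h signals far above it, a rise of at least 8.35 ± 0.15 (SE, n = 2 genotypes here and below; limma adjusted p = 0.000789). Serpinb2, which encodes the plasminogen activator inhibitor PAI-2, read 1.79 and 6.79 at 0 h, and 4571 and 6304 at 1 h, a rise of at least 8.20 ± 0.20 (adjusted p = 0.00117). Its signals did not overlap between times, which the choice favours. Socs3, an inhibitor of JAK kinases downstream of the IL-6 receptor family, read 22.2 and 85.3 at 0 h, and 12191 and 12897 at 1 h and rose by 8.17 ± 0.57 (adjusted p = 0.00539); the genotypes differed more at 0 h than at 1 h, and its error was larger. Olr1, the receptor for oxidised LDL, read 1.18 and 4.09 at 0 h, and 922 and 966 at 1 h, so it went from under the floor to a clear signal in both genotypes (at least 5.69 ± 0.10, adjusted p = 0.000789).

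Several of the 15 encode inhibitors of signalling. Dusp2, a nuclear phosphatase of ERK and p38, read 50.2 and 14 at 0 h, and 3821 and 3615 at 1 h and rose by at least 6.94 ± 0.41 (adjusted p = 0.00423). Dusp1, the phosphatase that limits p38 and JNK in macrophages, already had a signal at 0 h: it read 550.3 and 627 at 0 h, and 15581 and 16187 at 1 h and rose by 4.76 ± 0.12 (adjusted p = 0.00117). Errfi1 (also Mig6), an inhibitor of the EGF receptor kinase, went from 248 to 12726 in wild type and from 252 to 15215 in knockout. Errfi1 rose by 5.80 ± 0.13 (adjusted p = 0.00112). Tnfaip3, which encodes the ubiquitin-editing enzyme A20 that ends NF-κB signalling, went from 215 to 8738 in wild type and from 143 to 9299 in knockout (5.69 ± 0.20, adjusted p = 0.00149). Phlda1, a pleckstrin-homology protein linked to apoptosis, went from 94.6 to 6364 in wild type and from 57.2 to 6335 in knockout (6.43 ± 0.20, adjusted p = 0.00135).

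Tnfsf9, the 4-1BB ligand that costimulates T cells, went from 127 to 13961 in wild type and from 126 to 9414 in knockout and rose by 6.50 ± 0.17 (adjusted p = 0.00122). Gem, a small GTPase that restrains calcium channels, was under the floor at 0 h and read 2.73 and 3.71 at 0 h, and 755 and 418 at 1 h, a rise of at least 4.95 ± 0.25 (adjusted p = 0.00298). Acod1, which makes the antimicrobial metabolite itaconate, went from 748 to 14069.6 in wild type and from 405 to 13722 in knockout and rose by 4.66 ± 0.23 (adjusted p = 0.00298). Among transcription factors, Maff, a small Maf protein, went from 23.7 to 1680.3 in wild type and from 52.6 to 1585 in knockout (5.53 ± 0.49, adjusted p = 0.01), and Rel, the c-Rel subunit of NF-κB, went from 86.8 to 1972 in wild type and from 69.4 to 2027 in knockout (4.69 ± 0.17, adjusted p = 0.00167). All 15 genes of this set were at least 16-fold higher in each genotype. Without the wild-type 1 h array Socs3 and Maff no longer passed, and without the knockout 1 h array Socs3, Maff and Dusp2 did not; the other 12 passed with any 1 of the 4 arrays left out.

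**Figure D2:**
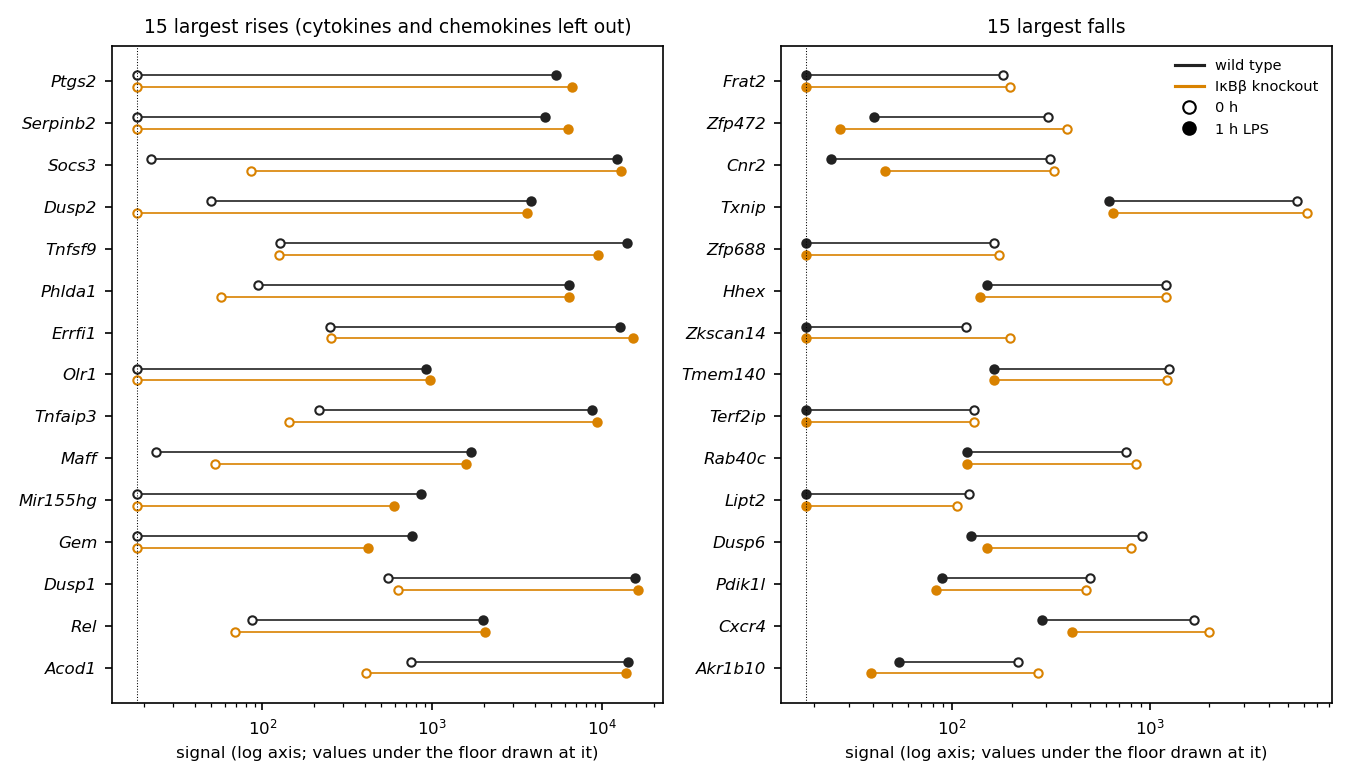
Array signal (log axis) at 0 h (open circles) and 1 h of LPS (filled circles) for the 15 largest rises outside cytokines and chemokines (left) and the 15 largest falls (right), with wild type in black and IκBβ knockout in orange; each point is 1 array, and signals under the floor, the dotted line at 18.2, are drawn at it. In every gene shown both genotypes move the same way, as the choice of the genes requires. Ptgs2, Serpinb2, Olr1, Mir155hg and Gem start from the floor in both.

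One of these RNAs is not a protein message. Mir155hg, the host transcript of the microRNA miR-155, read 1.55 and 1.20 at 0 h, and 863 and 591 at 1 h, a rise of at least 5.29 ± 0.19 (limma adjusted p = 0.00149). The 0 h signals were among the lowest a probe set gives, and both 1 h signals were well above the floor. The array reads the host transcript and not the mature microRNA, whose sequence in RefSeq (build GRCm38.p6, chr16:84714143-84714165, plus strand) is shown with its seed, bases 2 to 8, in capitals, since these bases choose the messages it silences.
mmu-miR-155-5p: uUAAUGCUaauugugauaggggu

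Promoters of 5 of the 15 genes are shown, chosen because they hold matches to motifs of factors that LPS activates. They were read from RefSeq's GRCm38.p6 promoter table, from 250 bases before to 50 after an annotated start, 5′ to 3′ along the gene, with motif matches in capitals. Tnfaip3 (chr10:19015361-19015660, minus strand) holds κB matches beginning at −125 and −12 from the start, an AP-1 match at −136 and a TATA box at −225. Rel (chr11:23770920-23771219, minus strand) holds overlapping κB matches at −92 and −91. Errfi1 (chr4:150854820-150855119, plus strand) holds a cAMP response element (CRE) at −51 and a TATA box at −28, and Dusp1 (chr17:26508423-26508722, minus strand) a CRE at −143. Serpinb2 (chr1:107511173-107511472, plus strand) holds an AP-1 match at −94 and a TATA box at −29. Of the same 15, Maff holds κB and CRE matches at different starts, Olr1 an AP-1 match and Acod1 only a TATA box. Ptgs2, Socs3, Dusp2 and Mir155hg hold none in this window, and no promoter of Phlda1, Tnfsf9 or Gem was read. A further start in the table for Tnfaip3 and for Errfi1 gave no match, and a further start for Serpinb2 overlaps the one shown.
Tnfaip3: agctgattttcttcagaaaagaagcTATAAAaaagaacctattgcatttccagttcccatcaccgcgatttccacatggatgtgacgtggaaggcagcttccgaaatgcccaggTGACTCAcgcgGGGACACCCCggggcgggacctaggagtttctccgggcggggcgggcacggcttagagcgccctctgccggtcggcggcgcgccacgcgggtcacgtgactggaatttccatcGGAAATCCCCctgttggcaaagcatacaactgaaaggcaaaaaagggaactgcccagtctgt
Rel: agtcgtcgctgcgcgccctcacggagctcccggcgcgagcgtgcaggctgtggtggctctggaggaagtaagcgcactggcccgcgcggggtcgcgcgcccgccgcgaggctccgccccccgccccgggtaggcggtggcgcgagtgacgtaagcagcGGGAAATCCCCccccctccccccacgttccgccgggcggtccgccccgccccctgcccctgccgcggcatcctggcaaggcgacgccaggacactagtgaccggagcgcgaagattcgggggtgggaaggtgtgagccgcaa
Errfi1: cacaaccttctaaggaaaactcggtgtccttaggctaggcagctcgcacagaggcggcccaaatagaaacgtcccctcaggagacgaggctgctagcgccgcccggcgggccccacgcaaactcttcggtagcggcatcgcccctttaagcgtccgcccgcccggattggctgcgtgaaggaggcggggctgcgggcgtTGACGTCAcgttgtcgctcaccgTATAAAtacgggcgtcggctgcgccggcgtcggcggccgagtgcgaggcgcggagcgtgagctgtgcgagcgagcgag
Dusp1: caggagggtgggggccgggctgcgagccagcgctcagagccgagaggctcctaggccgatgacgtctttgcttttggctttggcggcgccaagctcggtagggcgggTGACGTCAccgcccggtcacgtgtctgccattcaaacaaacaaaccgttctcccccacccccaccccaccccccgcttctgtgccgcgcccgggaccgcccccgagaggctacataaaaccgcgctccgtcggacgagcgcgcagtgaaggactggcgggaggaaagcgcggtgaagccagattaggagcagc
Serpinb2: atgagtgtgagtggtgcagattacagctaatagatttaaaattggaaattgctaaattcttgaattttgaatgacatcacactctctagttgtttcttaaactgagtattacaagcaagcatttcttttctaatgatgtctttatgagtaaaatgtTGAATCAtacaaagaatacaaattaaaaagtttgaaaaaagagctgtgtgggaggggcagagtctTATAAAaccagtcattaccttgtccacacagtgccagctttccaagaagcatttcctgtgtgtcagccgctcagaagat

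The same motifs were counted, on both strands, in the promoters that the table holds, which cover 225 of the 280 genes higher 2-fold, 138 of the 171 lower 2-fold and 6192 of the 7508 tested: the κB consensus, the CArG box of SRF, the CRE (TGACGTCA), AP-1 (TGANTCA) and the TATA box (TATAAA). The letters of the CRE and AP-1 differ, so that no match counts for both. A κB match was in 12.8% of 282 promoters of the genes higher 2-fold, in 4.73% of 169 promoters of those lower 2-fold, and in 5.39% of 8010 promoters of all genes tested. AP-1 gave 11.7%, 4.14% and 5.42%, and the TATA box 14.5%, 7.10% and 7.25%. The CArG box gave 3.19%, 0.592% and 1.37%, and the CRE 3.90%, 2.96% and 3.02%. In all 32851 promoters of the table the shares were 4.51% for κB, 7.81% for AP-1, 13.6% for the TATA box, 1.63% for the CArG box and 1.79% for the CRE. These shares describe letters in a window and come with no test.

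**Figure D3:**
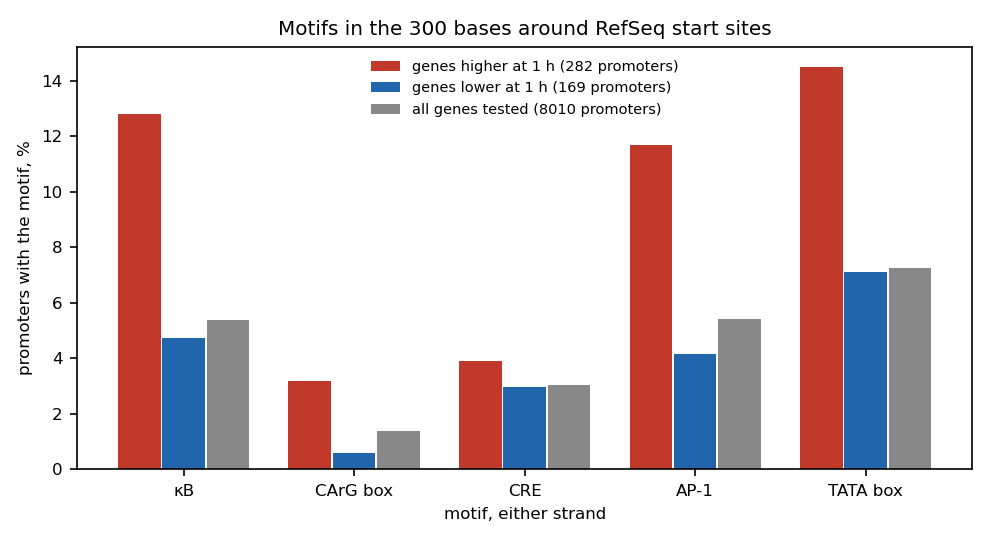
Share of promoters (%) with at least 1 match to each motif on either strand, for genes higher at least 2-fold in both genotypes (red, 282 promoters), lower at least 2-fold (blue, 169) and all genes tested (grey, 8010). Bars start at 0; the red bars for κB, AP-1 and the TATA box stand at 12.8, 11.7 and 14.5%, the grey ones at 5.39, 5.42 and 7.25%.

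Phosphatases of MAP kinases and other feedback genes of the pathway moved in both directions. Of 22 genes tested (26 on the array), 10 were higher and 2 lower, with a median of 0.77. The shares of all genes tested, 5.42% higher and 5.91% lower, are those to set beside this list and the lists below. Besides Dusp2 and Dusp1, Gadd45b, an activator of the p38 pathway, rose by 3.90, the JNK phosphatase gene Dusp16 by 3.30 and the pseudokinase gene Trib1 by 2.56. Dusp6, the cytoplasmic phosphatase specific for ERK, went the other way: it read 909.9 and 799 at 0 h, and 125 and 151 at 1 h. Its fall was 2.63 ± 0.15 (limma adjusted p = 0.00402), and it did not pass without the wild-type 1 h array. Map3k14, the NIK kinase of the non-canonical NF-κB pathway, fell by 0.89, a call lost after quantile normalization and in a fit to the 4 arrays of 0 h and 1 h alone. Spry1, a Sprouty inhibitor of receptor tyrosine kinases, had 1.40 and Trib3 −1.56, a bound since its 1 h signals were under the floor, and neither passed.

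Of 21 genes for NF-κB subunits, inhibitors and modulators, all on the array, 10 were higher and 1 lower, and the median was 0.94. Nfkbiz, which encodes the nuclear coactivator IκBζ, went from 791 to 12387 in wild type and from 620.1 to 10368 in knockout and rose by 4.02 ± 0.12 (limma adjusted p = 0.00135). Nfkbie, the IκBε gene, rose by 2.49 and Tnip1, a partner of A20, by 2.12. For Nfkbia, the IκBα gene, the probe set with the highest mean rose by 0.76 in wild type and 0.91 in knockout. Its other probe sets rose by more, up to 2.52 in wild type and 2.64 in knockout, so its place among these genes depends on the probe set. Nkiras2, a Ras-like protein that binds IκB, stood at −0.78, a call lost when array medians were made equal. In the JAK-STAT inhibitor list (17 on the array, 16 tested; 4 higher, 1 lower, median 0.19), Socs3 was followed by Socs1, with a rise of at least 2.99, and Cish, with 2.54. Sh2b3, an adaptor that restrains JAK2, stood at −0.57, lost after either rescaling.

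Some genes for RNA-binding proteins that destroy inflammatory messages rose within the same hour. Zc3h12a, the endonuclease Regnase-1, went from 178 to 1693 in wild type and from 215 to 2382 in knockout and rose by 3.36 ± 0.20 (limma adjusted p = 0.00423). Zfp36, which encodes tristetraprolin, the protein that binds AU-rich elements, went from 1897 to 12483 in wild type and from 2134 to 13873 in knockout and rose by 2.71 ± 0.12 (adjusted p = 0.00233), and its paralogue Zfp36l1 rose by 1.19. The third paralogue, Zfp36l2, read 6399 and 6483 at 0 h, and 2296 and 2531 at 1 h and fell by 1.42 ± 0.13 (adjusted p = 0.0101). In each genotype the order of these paralogues' changes was thus the same: Zfp36 and Zfp36l1 up, Zfp36l2 down. The antiproliferative genes Btg2 and Btg1 rose by 2.15 and 0.66, the latter not called in the fit to the 4 arrays alone. In all, 5 of the 27 genes tested in this list were higher, 1 was lower and the median was 0.05.

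Immediate early transcription factors gave 17 higher and 1 lower of 32 tested (36 on the array), with a median of 1.52. After Maff came Myc, which went from 76.5 to 1016 in wild type and from 51.4 to 1469 in knockout and rose by 4.28 ± 0.32 (limma adjusted p = 0.00676). Junb, an AP-1 subunit, rose by 3.54, the orphan nuclear receptor gene Nr4a1 by 3.49 and Id3, an inhibitor of E proteins, by 3.47. Other AP-1 genes moved little: Fos changed by 0.09 in wild type and 0.30 in knockout. Jun changed by 0.57 and 0.27 on 1 probe set, and by −0.07 and 0.61 on another. Klf9 stood at −0.75, a call lost when array medians were made equal. Egr3 had 2.13, from signals near the floor, and did not pass (adjusted p = 0.159). Among 40 other inducible transcription and chromatin regulators (41 on the array), 19 were higher and 1 lower, with a median of 0.83. Jdp2, an AP-1 repressor, rose by 3.61, Nfil3, a repressor of clock-controlled genes, by 3.54, Prdm1, the repressor Blimp-1, by 2.74, Ets2 by 2.72 and the calcineurin inhibitor gene Rcan1 by 2.71. Crem stood at −0.64, lost after either rescaling, and Irf4, with 2.48, did not pass (adjusted p = 0.0691).

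Of 25 factors that define the macrophage lineage (28 on the array), 1 (4%) was higher and 2 (8%) were lower, near the 5.42% and 5.91% of all genes, and the median was −0.20. Tfec, a macrophage-restricted relative of MITF, went from 602 to 5016 in wild type and from 607 to 3045 in knockout and rose by 2.69 ± 0.21 (limma adjusted p = 0.00682). Hhex, a homeobox factor of haematopoietic progenitors, read 1209 and 1214 at 0 h, and 149.5 and 138 at 1 h. Hhex fell by 3.08 ± 0.15 (adjusted p = 0.00298). Irf8, a factor required for monocyte development, fell by 1.00 ± 0.12 (adjusted p = 0.0208). Lyl1 had −1.87 but did not pass (adjusted p = 0.0931), although it went from 1651 to 453 in wild type and from 1681 to 459 in knockout. Its genotypes differed at 5 h, with −3.41 in wild type and −5.17 in knockout, and the fit counts this in its spread. After quantile normalization 4 genes of this list were lower.

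The secreted products began with 15 of 19 cytokine genes tested (27 on the array) and 12 of 21 chemokine genes (26 on the array), all higher and none lower, with medians of 4.06 and 3.44. Il1a, Il6, Il1b and Tnf led the first list, and Cxcl1, Ccl7 and Ccl2 the second. Testing a gene required a signal above the array median on at least 1 of 6 arrays. Genes under the floor at 0 h, such as Il6 (4.21 and 2.13) and Csf2 (4.22 and 3.78), were therefore tested only because of their signal under LPS, and they could not fall. The counts and medians follow in part from this filter, here and in the other lists. Beyond cytokines and chemokines, 10 of 25 growth factors and vasoactive peptides (38 on the array) were higher and 0 lower, with a median of 0.71. Hbegf, a ligand of the EGF receptor, went from 18.9 to 329 in wild type and from 11.7 to 554 in knockout and rose by at least 4.52 ± 0.23 (limma adjusted p = 0.00298). Edn1, the endothelin precursor, and Adm, adrenomedullin, peptides that constrict and dilate vessels, rose by at least 3.10 and 2.81 from under the floor. The Notch ligand gene Jag1 rose by 3.03, Inhba, the activin A subunit, by at least 2.23 and Bmp2 by 1.23. Adm was not called with the floor at the 40th percentile, and Adm, Jag1 and Inhba were not called in the fit to the 4 arrays of 0 h and 1 h alone.

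Proteins of coagulation, plasminogen activation and the matrix gave 10 higher and 0 lower of 33 tested (38 on the array), with a median of 0.30. Besides Serpinb2, Mmp13, an interstitial collagenase, went from 275 to 3464 in wild type and from 236 to 3083 in knockout and rose by 3.68 ± 0.10 (limma adjusted p = 0.00124). Adamts4, an aggrecanase, rose by 3.52, the heparan sulphate proteoglycan gene Sdc4 by 3.48 and Plaur, the urokinase receptor, by 3.12. Plat, tissue plasminogen activator, had at least 2.40 and Thbd, the anticoagulant thrombomodulin, −0.96, and neither passed. In prostaglandin and leukotriene synthesis (19 on the array, 17 tested) only Ptgs2 and Ptges, the microsomal prostaglandin E synthase coupled to it, passed, and the median was −0.16 (0.02 with array medians made equal). Ptges read 16.4 and 14.6 at 0 h, and 196 and 139.7 at 1 h, from under the floor in both genotypes, a rise of at least 3.18 ± 0.16 (adjusted p = 0.00298). The cytosolic phospholipase gene Pla2g4a had 0.58 and did not pass (adjusted p = 0.105).

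At the cell surface, 10 of 39 G protein-coupled receptors tested (49 on the array) were higher and 3 lower, with a median of 0.11. Ccrl2, an atypical receptor that presents chemerin, went from 375 to 9778 in wild type and from 361 to 8507 in knockout and rose by 4.63 ± 0.15 (limma adjusted p = 0.00135). Hcar2, the receptor for niacin and hydroxybutyrate, rose by 4.33, Gpr84, a receptor for medium-chain fatty acids, by 4.11, and the ATP and UTP receptor gene P2ry2 by 2.83, a call lost in the fit to the 4 arrays alone. The 3 that fell were Cnr2, the peripheral cannabinoid receptor, Cxcr4, the receptor that holds cells in the marrow, and Gpr146. Cnr2 read 312 and 327 at 0 h, and 24.6 and 45.6 at 1 h and fell by 3.25 ± 0.26 (adjusted p = 0.00788). Cxcr4 read 1677 and 1991 at 0 h, and 286 and 406 at 1 h, and fell by 2.42 ± 0.21 (adjusted p = 0.00935). It was not called without either 1 h array. Gpr146 fell by 1.71, a call lost in the fit to the 4 arrays alone.

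Regulators of G proteins and small GTPases also divided. Of 49 tested, all those on the array, 8 were higher and 1 lower, with a median of −0.03 (0.15 with array medians made equal). Rgs1, which speeds the shut-off of G proteins, rose by 2.87 while its relative Rgs2 fell by 2.41 ± 0.13 (limma adjusted p = 0.00386). Rgs1 went from 258 to 1877 in wild type and from 179 to 1314 in knockout, and Rgs2 from 2105 to 433 in wild type and from 2168 to 375 in knockout. Gem led the rises, and the exchange factor gene Arhgef3 rose by 1.91. Of 42 Rab genes tested (56 on the array), 1 (2.38%) was higher and 2 (4.76%) were lower, beside 5.42% and 5.91% of all genes. Rab20 rose by 2.71 and Rab40c, a Rab-like subunit of a ubiquitin ligase, fell by 2.75. Rab29 stood at −0.54, lost after either rescaling and in the fit to the 4 arrays alone.

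Costimulation and adhesion gave 12 higher and 1 lower of 43 tested (46 on the array), with a median of 0.18. Cd40, the receptor for T cell help, went from 180.1 to 3698 in wild type and from 160.4 to 2061 in knockout and rose by 4.02 ± 0.23 (limma adjusted p = 0.00401). Vcam1, a ligand of integrin VLA-4, rose by at least 3.76 from under the floor, Itga5, a fibronectin receptor subunit, by 3.61, and the poliovirus receptor gene Pvr by 3.01. Slamf1, a self-ligand receptor of immune cells, read 41.7 and 53.4 at 0 h, and 5.70 and 4.10 at 1 h, under the floor at 1 h in both genotypes. It fell by at least 1.37 and was not called as the mean of its probe sets or when the floor was the 40th percentile. Of 48 cytokine and growth factor receptors tested (59 on the array), 4 (8.33%) were higher, beside 5.42% of all genes, 0 were lower, and the median was −0.06 (0.12 with array medians made equal). Tnfrsf12a, the TWEAK receptor, rose by 2.20, Il17ra by 1.74, Nrp2 by 0.91 and Ifnar1 by 0.85; Nrp2 was not called in the fit to the 4 arrays alone or with the floor at the 10th percentile.

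Apoptosis regulators gave 18 higher and 3 lower of 40 tested (45 on the array), with a median of 0.23. Traf1, an adaptor of TNF receptors, went from 80.6 to 1429.8 in wild type and from 78 to 1283 in knockout and rose by 4.09 ± 0.10 (limma adjusted p = 0.00117). The survival kinase gene Pim1 rose by 2.74, Cflar, which encodes the caspase-8 inhibitor c-FLIP, by 2.49, and Pmaip1, the BH3-only protein NOXA, by 2.01, so the list's risen members include both inhibitors and promoters of death. Casp9, the initiator caspase of the mitochondrial pathway, went from 327 to 107 in wild type and from 314 to 127 in knockout and fell by 1.46 ± 0.13 (adjusted p = 0.00967). Bid, which links caspase-8 to mitochondria, fell by 1.42 ± 0.11 (adjusted p = 0.00682), and Casp2 by 1.15. These 3 falls held after both rescalings. Among ubiquitin ligases and TRAF-linked enzymes (50 on the array, 47 tested; 8 higher, 1 lower, median 0.19), Trim13 rose by 3.52, the p53 ligase gene Mdm2 by 2.83, Peli1 by 2.48 and Rnf19b by 2.45, and Trim27 fell by 0.88.

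Some metabolic genes rose. Of 39 polyamine, itaconate, nitric oxide and redox enzymes tested (42 on the array), 7 were higher and 0 lower (11 higher with array medians made equal). Ch25h, the enzyme that makes 25-hydroxycholesterol, went from 63 to 752 in wild type and from 55.6 to 447 in knockout and rose by 3.29 ± 0.21 (limma adjusted p = 0.00486). Gch1, the first enzyme of tetrahydrobiopterin synthesis, rose by 3.01, the arginase gene Arg2 by 2.81 and Odc1, the first enzyme of polyamine synthesis, by 2.00. In glycolysis and glucose uptake 5 of 19 genes, all those on the array, were higher, 0 were lower and the median was −0.09 (0.09 with array medians made equal). The glucose transporter gene Slc2a1 rose by 2.15, Pfkfb3, which raises fructose 2,6-bisphosphate, by 1.72, the lactate exporter gene Slc16a3 by 1.10 and Hk2 by 0.78; Pfkfb3 was not called in the fit to the 4 arrays alone. Eno2 rose by at least 1.63 from signals of 11.7 and 20.6, a call lost after quantile normalization.

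Among all 138 solute carriers tested (262 on the array), 11 (7.97%) were higher and 5 (3.62%) lower, and the median was −0.14. Slc7a11, the cystine importer that feeds glutathione synthesis, went from 73.3 to 562 in wild type and from 58.8 to 677 in knockout and rose by 3.23 ± 0.29 (limma adjusted p = 0.00995). The phosphate importer gene Slc20a1 rose by 1.92, the mitochondrial pyrimidine carrier gene Slc25a33 by 1.88 and the zinc and iron importer gene Slc39a14 by 1.59. Slc40a1, which encodes ferroportin, the cell's iron exporter, went from 10521 to 5812 in wild type and from 9322 to 5240.3 in knockout and fell by 0.84 ± 0.11 (adjusted p = 0.0246). It was not called as the mean of its probe sets (−0.77). Slc37a4, the glucose 6-phosphate transporter, fell by 1.03, a call lost in the fit to the 4 arrays alone. With array medians made equal 2 solute carriers were lower.

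Stress genes gave small groups of large rises. Of 27 heat shock proteins and chaperones tested (31 on the array), 6 were higher and 1 lower, with a median of −0.07 (0.11 with array medians made equal). Hspa1b and Hspa1a, which encode almost identical Hsp70 proteins and whose probe sets may not separate them, rose by 4.33 and 3.35. Hspa1b went from 99.9 to 2507 in wild type and from 107 to 1726 in knockout (limma adjusted p = 0.00401). Dnajb4, a co-chaperone, rose by 2.95, while Ahsa1, an activator of Hsp90, had −0.48 and did not pass. Hspe1 stood at −0.52, lost with array medians made equal. Of 28 genes of the integrated stress response and the endoplasmic reticulum (31 on the array), 7 were higher and 1 lower, with a median of −0.07 (0.11 with array medians made equal). Nupr1 rose by 3.65, and Ppp1r15a, the GADD34 subunit that reverses the phosphorylation of eIF2α, by 2.92 ± 0.25 (adjusted p = 0.00924). Ddit3, the CHOP factor, stood at −0.71, lost after either rescaling. Of 45 ribosome biogenesis genes tested (46 on the array) 0 were higher and 1, Ppan, was lower by 1.31; the median was −0.25.

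Targets of p53 gave 7 higher and 2 lower of 27 tested (31 on the array), with a median of −0.31. Mdm2, Btg2, Pmaip1, the kinase gene Plk3 (1.88) and Cdkn1a, the cell cycle inhibitor p21 (1.86), rose, and Sesn1, a sestrin that restrains mTORC1, fell by 1.63 ± 0.20 (limma adjusted p = 0.0187). Ppm1d stood at −0.59, lost after either rescaling. TGF-β, BMP and SMAD signalling gave 5 higher and 0 lower of 25 tested (33 on the array), with a median of 0.07: Id3, Skil, a SMAD corepressor (2.38), Inhba, Id2 (1.63) and Bmp2. Interferon-stimulated genes gave 11 higher and 1 lower of 42 tested, all those on the array, with a median of 0.08. The chemokine genes Cxcl10 and Cxcl11 led, followed by Mx2 (at least 2.94), Oasl1 (2.79) and Ifit1 (1.91). Mx2 was not called in the fit to the 4 arrays alone. Stat2 stood at −0.74, lost with array medians made equal, and Oas2, with −0.47, did not pass.

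**Figure D4:**
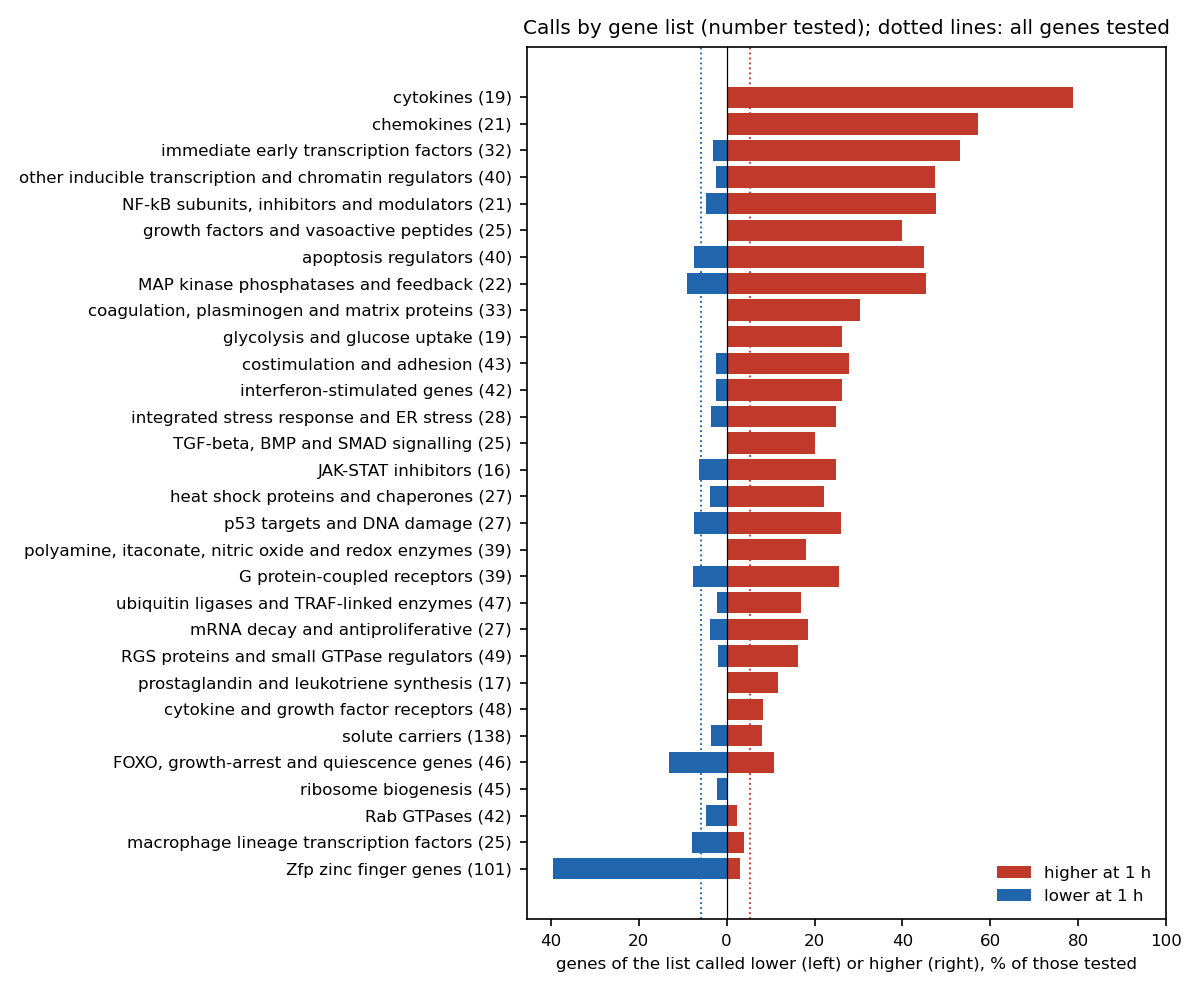
Share of each gene list (% of its members tested, number in brackets) called higher (red, to the right) or lower (blue, to the left) at 1 h, with dotted lines at the shares of all genes, 5.42% and 5.91%. Chemokines, with 12 of 21 higher, and immediate early transcription factors, with 17 of 32, reach far to the right, and Zfp zinc finger genes, with 40 of 101 lower, far to the left.

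Among the largest falls of the first hour was that of Frat2. This gene, a GSK3-binding activator of Wnt signalling, read 182 and 196 at 0 h, and 11.9 and 5.44 at 1 h. Its 1 h signals were under the floor in both genotypes, and it fell by at least 3.37 ± 0.10 (limma adjusted p = 0.00135). Txnip, which inhibits thioredoxin and glucose uptake, read 5570.1 and 6224 at 0 h, and 622 and 654 at 1 h. Txnip fell by 3.21 ± 0.22 (adjusted p = 0.00539). Tmem140, a membrane protein, read 1249 and 1225 at 0 h, and 163 and 163 at 1 h and fell by 2.92 ± 0.10 (adjusted p = 0.00149). Terf2ip, the telomere protein RAP1, read 129 and 129 at 0 h, and 9.97 and 15.5 at 1 h and fell by at least 2.82 ± 0.25 (adjusted p = 0.00935). The enzyme gene Lipt2, of lipoate synthesis, fell by at least 2.64, the kinase gene Pdik1l fell by 2.50 and the aldo-keto reductase gene Akr1b10 fell by 2.41. Txnip and Terf2ip did not pass without either 1 h array, nor Lipt2 without that of wild type, and Akr1b10 did not without either 0 h array or the knockout 1 h array.

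Txnip headed a list of FOXO, growth-arrest and quiescence genes in which 5 of 46 tested (53 on the array) were higher and 6 lower, with a median of −0.28. Tsc22d3, the glucocorticoid-induced leucine zipper GILZ, went from 958 to 217 in wild type and from 1172 to 241 in knockout and fell by 2.21 ± 0.11 (limma adjusted p = 0.00296). Sesn1 went from 3681 to 1317 in wild type and from 3605 to 1046 in knockout, and both genotypes dropped by a like amount. Ypel5 fell by 0.81, and Foxo3 stood at −0.76, lost after either rescaling. On the other side Ccnd2, cyclin D2, rose by 2.19, Cdkn1a by 1.86, Cited2, a CBP-binding inhibitor of HIF, by 1.46 and Ddit4, an inhibitor of mTORC1, by 1.30. Mnt, a Myc antagonist, had −1.56 and Mxd1, a relative of it, at least 2.47, and neither passed (adjusted p = 0.0682 and 0.0514).

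The largest group among the falls was of zinc finger genes named Zfp, most of which encode Krüppel-type DNA-binding proteins, many of them repressors. Of 101 tested (173 on the array), 40 were lower and 3 higher, beside 5.91% and 5.42% of all genes, and 30 of the 40 were lower at least 2-fold in both genotypes. Their median was −0.75, or −0.57 relative to all genes, and 33 were lower after quantile normalization and 36 with array medians made equal. Zfp472 read 304 and 383 at 0 h, and 40.2 and 27.2 at 1 h and fell by 3.37 ± 0.34 (limma adjusted p = 0.0126). Zfp688 read 163 and 173 at 0 h, and 6.79 and 14.7 at 1 h, ending under the floor in both genotypes, and it fell by 3.20 ± 0.10 or more (adjusted p = 0.00135). Zfp709 fell by 2.38, Zfp955a by 2.34 and Zfp101 by at least 2.37. The related gene Zkscan14 read 118 and 197 at 0 h, and 3.82 and 5.04 at 1 h, with both 1 h signals under the floor, and fell by at least 3.06 ± 0.23 (adjusted p = 0.00676). Of the 3 that rose, Zfp36 and Zfp36l1 encode the RNA-binding proteins above, and Zfp281, a DNA-binding repressor, rose by 1.48. Zfp472 and Zkscan14 did not pass without either 1 h array, and Zfp101 did not in the fit to the 4 arrays alone or with another floor. Many Zfp genes are close copies, so that probes may read more than 1 of them.

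Some changed genes were direct neighbours in the RefSeq gene order among the protein-coding genes tested. At least 2-fold higher in both genotypes were 38 genes in 17 runs, and at least 2-fold lower 17 genes in 7 runs. Over all genes tested 280 (3.73%) were higher and 171 (2.28%) lower by the same condition. Such shares give some runs without any link between neighbours, and how many was not computed. The longest run of rises, on chromosome 11, held Cdk5r1, Ccl2, Ccl7 and Ccl12, and a run on chromosome 2 held Slc20a1, Il1a and Il1b. Trib1 and Myc were neighbours on chromosome 15, Slc7a11 and Noct on chromosome 3, and Tnfsf9 and Tnfsf14 on chromosome 17. The longest run of falls, also on chromosome 17, held Zfp472, Zfp955a, Zfp955b and Zfp101, and a run on chromosome 6 held Zfp777, Zfp746 and Zfp467. Pnrc2 and Cnr2 were neighbours on chromosome 4, and Zkscan14 and Zkscan5 on chromosome 5. These runs come with no test, and neighbours of a family may share probes.

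The arrays of 5 h, which are compared with the same 0 h arrays, show which of these changes stood at a single time. Their medians were 70.7 and 65.2, beside 113 and 117 at 0 h, and the signals given here were not rescaled for this. Csf2, the cytokine GM-CSF, read 4.22 and 3.78 at 0 h, and 905 and 639 at 1 h, and 11.9 and 11.3 at 5 h, again under the floor in both genotypes; its rise at 1 h was at least 5.38 ± 0.17 (limma adjusted p = 0.00137). Ifnb1, interferon beta, read 88.2 and 50.3 at 0 h, and 1629 and 1955 at 1 h, and 127 and 81.4 at 5 h. Both are high at 1 h and near the 0 h level at the other times. Lif, a cytokine of the IL-6 family, rose by at least 3.85 and read 29 and 12 at 5 h after 237 and 345 at 1 h. Among genes that are not cytokines, Nr4a1 read 2148 and 1685 at 1 h and 331 and 141 at 5 h, and Cdc42ep4, an effector of the GTPase Cdc42, went from 310.4 to 2388 in wild type and from 209 to 2486 in knockout at 1 h and read 461 and 366 at 5 h. Cdk5r1, the p35 activator of the kinase CDK5, rose by at least 3.49 at 1 h and was under the floor at 5 h, with 17.4 and 14.8. Jag1 read 146 and 75.3 at 5 h beside 396 and 580 at 1 h, and the AP-1 gene Fosl1 30.1 and 8.33 beside 103 and 212; their 1 h rises were 3.03 and at least 3.02. Errfi1, by contrast, still read 967 and 939 at 5 h, above both 0 h signals, and Ptgs2 read 16749 and 15178.

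Other genes were at least 2-fold lower at 1 h and within 2-fold of 0 h at 5 h in both genotypes, which is how they were chosen. Tmem140 read 1769.6 and 1709.8 at 5 h, above its 0 h signals of 1249 and 1225. Sertad3, a transcriptional coregulator, read 355 and 444 at 0 h, and 92.3 and 159 at 1 h, and 612 and 819 at 5 h; it fell by 1.71 ± 0.15 at 1 h (limma adjusted p = 0.0101). Rsrp1, an arginine and serine rich protein, read 1808 and 2109.8 at 0 h, and 605 and 641 at 1 h, and 1381 and 1167 at 5 h. The 5 h signals were below those of 0 h, on arrays whose medians were also lower. For Sertad3 and Rsrp1, each genotype's 1 h signal was the lowest of its 3. The RNA-binding protein gene Ptcd1 fell by 1.73, BC002059 by 2.12, Zfp213 by at least 1.89, the cyclin E1 gene Ccne1 by at least 1.91 and the centriole gene Poc5 by at least 1.62, all from low 0 h signals. Ccne1 and Poc5 were not called with the floor at the 40th percentile, nor Zfp213 and Poc5 with it at the 10th. Other falls went on: Cxcr4 read 27.9 and 23.6 at 5 h, Sesn1 33.8 and 20.6 and Tsc22d3 23.5 and 26.8. Irf8 read 3614 and 3579 at 0 h, and 1733 and 1865 at 1 h, and 7463 and 9140.5 at 5 h, so it was lower than 0 h at the earlier time and higher at the later.

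**Figure D5:**
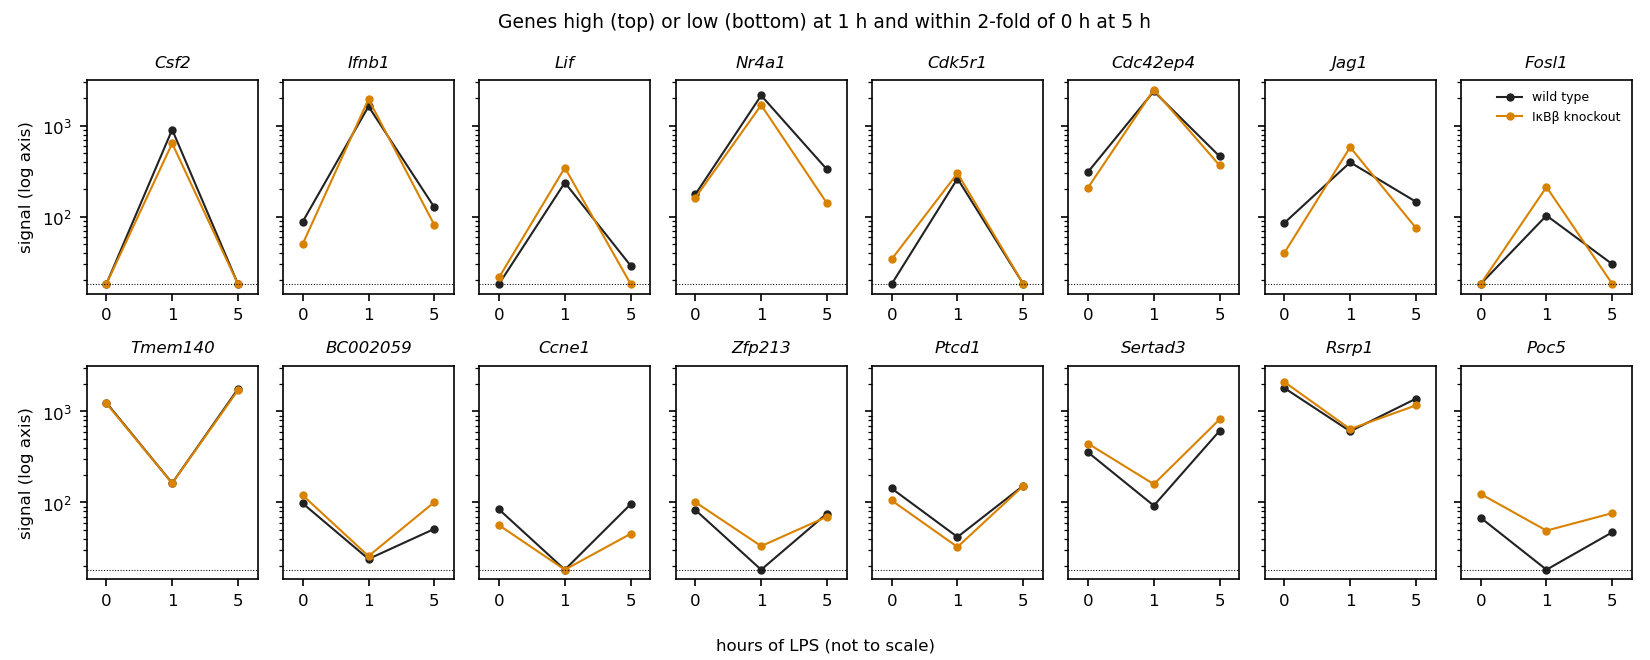
Array signal (log axis) at 0, 1 and 5 h of LPS, wild type in black and IκBβ knockout in orange, 1 array per point; signals under the floor (dotted line, 18.2) are drawn at it and the time axis is not to scale. The top row shows the 8 largest 1 h rises among genes at least 4-fold up at 1 h and under 2-fold from 0 h at 5 h in both genotypes, the bottom row the 8 largest falls among genes at least 2-fold down at 1 h and within 2-fold of 0 h at 5 h; the choice of the genes fixes these shapes.

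For 6 of the 30 genes with the largest rises and falls a further probe set exceeded an array median, 8 probe sets in all, and all 8 moved at least 2-fold in the same direction. They belong to Ptgs2, Socs3, Errfi1, Txnip, Rab40c and Pdik1l. Any of the 6 arrays counted for this, so a probe set low at 0 h could enter only through its signal under LPS. For the risen genes the agreement follows in part from that filter. The other 24 genes rest on a single probe set. Of the neutrophil markers (11 on the array, 4 tested), Lcn2, which binds bacterial siderophores and is also made by macrophages, went from 32.3 to 233 in wild type and from 34.1 to 171 in knockout and rose by 2.59; the call was lost with no filter on low signals. Mmp8, neutrophil collagenase, was the brightest of the list, with 1467 and 2248 at 0 h and 1288 and 1910 at 1 h, above the array medians throughout, and it did not pass. The summed signal of the list was 1851 and 2691 at 0 h and 1889 and 2363 at 1 h, 9 of its 11 genes were below the array median on all 4 arrays, and Ltf and Cxcr2 were under the floor on all 4; the part of such cells in the results was not tested.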

How the data were processed

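Total RNA was labelled with biotin and hybridised, per the labels' protocols. The deposited values are intensity: MAS5 signals on a linear scale that the authors made for 22690 probe sets an array, per the submitters' processing notes; no source used here states the scaling target. With the top and bottom 2% of values trimmed, each array had a mean of 499.9. Array medians were 98.7 to 117 at 0 h and 1 h, and lower at 5 h, with 70.7 in wild type and 65.2 in knockout. The number of arrays limits the precision.

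The 25th percentile of all values, 18.2, served as a floor, set before taking log2. Of the probe sets, 20380 have 1 symbol in GEO's platform annotation, 691 several and 1555 none, and 64 are controls. A probe set was kept if above its array's median on at least 1 of 6 arrays, and the one with the highest mean stood for its gene. limma 3.58.1 in R 4.3.3 fitted genotype, which pairs the arrays, and time as additive terms to all 6 arrays, since 4 leave 1 residual degree of freedom; the 1 h coefficient was read, with Benjamini-Hochberg adjustment over 7508 genes. Leaving an array out leaves a genotype without its pair, so sign and size then come from the fitted change. On simulated data of 7508 genes the fit recovered 74% of 100 genes changed 2-fold and 97% of 100 changed 4-fold, with 10 false calls. The simulation drew independent normal noise around each gene's mean, with spreads estimated by the fit itself. It held no floor, genotype effect, change at 5 h or shift of a whole array. It therefore shows the fit under its own assumptions and gives no error rate for the calls here.

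Named genes were the 15 largest rises and falls called and 2-fold in both genotypes (cytokines and chemokines aside), up to 5 called members each way and the extreme uncalled members of each list, 8 genes high and 8 low at 1 h alone, those 2-fold in opposite directions, Nfkbib, and those at the edge of 2-fold; neighbours, marker genes and Xist were added. Some list members that this rule names are not reported here. The genes, the 38 lists (8 of them cell markers, 3 of them symbol families) and the tests were chosen with earlier results of these data known. Alternatives were the 4 arrays alone, quantile normalization, array medians made equal, other floors, filters and probe set rules, no genotype term, and each array left out.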

Additional observations from a re-analysis of the deposited data

Results flagged for a closer look

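Only 7 of the 7508 genes moved at least 2-fold in opposite directions in the genotypes, with 1 array at each point, and the difference was not tested. Knockout minus wild type of the 1 h change was 4.44 for the crystallin gene Crybb3, 3.94 for the MAP kinase phosphatase gene Dusp10, 3.83 for the chromatin factor gene Dpf3 and 2.38 for the amino acid transporter gene Slc38a3, all down in wild type and up in knockout. It was −3.08 for the integrin gene Itgb2l, −3.04 for the exchange factor gene Rasgrp4 and −2.59 for the transporter gene Slc16a11, all up in wild type and down in knockout. The signals were low: the highest was 127, for Slc16a11 in knockout at 0 h. Dusp10 read 56.2 and 16.5 at 0 h, and 3.58 and 91.1 at 1 h, and Crybb3 112 and 13.7 at 0 h, and 19.6 and 69.8 at 1 h. A further Dusp10 probe set read 3.59 and 13.4 at 0 h, and 3.68 and 10.4 at 1 h. These signals were all under the floor and show no such change. Dusp10, Crybb3, Slc38a3 and Itgb2l include signals under the floor of 18.2, so their values are bounds.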

How the results depend on the processing

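The genes higher and lower numbered 407 and 444, and 370 and 359 in the fit to the 4 arrays alone. Without the genotype term, which removes the pairing (no replicate block), they were 427 and 550, of which 280 and 174 were 2-fold in both genotypes. With no filter on low signals, which tests 12393 genes, they were 148 and 103, and 120 and 46 at 2-fold. With the floor at the 40th percentile 715 were lower, and with array medians made equal 270. Leaving out an array gave 99 to 197 higher and 13 to 60 lower, and at 2-fold also 99 to 197 and 13 to 60. Some of these settings also differ in the number of genes or of arrays, and the causes were not tested.

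With array medians made equal, 0 genes were lower in the immediate early, NF-κB, JAK-STAT, other transcription regulator, integrated stress, heat shock and interferon-stimulated lists, 1 among p53 targets, 2 among solute carriers and 1 among Rab genes; 11 polyamine, itaconate and redox genes, 2 ribosome biogenesis, 6 Zfp and 3 Rab genes were higher. After quantile normalization 0 were lower in the JAK-STAT, other transcription regulator and integrated stress lists, 1 in each of the MAP kinase, prostaglandin and polyamine lists, and 4 lineage factors; 2 ribosome biogenesis, 5 Zfp and 2 Rab genes were higher. Of 187 named genes that passed, 178 did after quantile normalization, 173 with array medians made equal, 162 in the fit to the 4 arrays alone, 79 with no filter, and 79 to 127 with 1 array left out.

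Signs turned for 22 of the 268 named genes under an alternative, and 0 of these had passed; 18 are marker genes or genes of opposite changes, whose mean change is not given. Of the other 4, all but Tgfb1 have signals under the floor. Cxcl9 stood at −0.15, and at 0.0797 with array medians made equal, 0.0520 with the higher floor, 0.18 and 0.62 without the knockout 0 h or 1 h array, and −0.92 to 0.62 over the arrays left out. Tgfb1 stood at −0.17 and at 0.00547 with array medians made equal. Without the wild-type 1 h array Il15ra stood at −0.22, from 1.06, and Pomc at −0.18, from 1.09; without that of knockout they stood at 2.35 and 2.36. Signals near the floor limit what the arrays can show: 31 of the 280 genes higher 2-fold started under it in either genotype, and 17 of the 171 lower 2-fold ended under it.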
